A study of Homo sapiens with 12 samples.

Results

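Amino acid transporter genes that the transcription factor ATF4 is known to control, here SLC38A2, SLC7A11, SLC7A5, SLC3A2, SLC1A5 and SLC7A1, were followed in breast cancer cells given AZD0095 or its solvent DMSO. These 6 were chosen by gene symbol, and 6 of 6 were among the 6777 genes tested. AZD0095 is an inhibitor of MCT4, the lactate exporter encoded by SLC16A3. The cells were of the human line MDA-MB-231, from a triple-negative breast cancer, grown in DMEM with serum and GlutaMAX, a stable source of glutamine. One group of cells received 10 nM AZD0095 for 4 h, and the other received DMSO for 4 h. Each treatment had 3 RNA libraries and 3 libraries of ribosome footprints, the mRNA fragments that ribosomes protect from RNase, which makes 12 libraries. The study asked what the inhibitor does to transcription and to translation, and all results apply to 1 cell line, 1 dose and 1 time.

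Cells that run short of amino acids, or whose endoplasmic reticulum or mitochondria are disturbed, phosphorylate the initiation factor eIF2α. Most translation then slows, while the mRNA of ATF4 is translated better. ATF4 joins with C/EBP proteins on a short DNA element and raises genes that make and import amino acids. Among the importers, SLC38A2 (SNAT2) carries neutral amino acids such as glutamine and alanine into the cell with sodium. SLC7A11 (xCT) exchanges glutamate for cystine, the source of cysteine for glutathione, and SLC7A5 (LAT1) exchanges intracellular glutamine for leucine and other large neutral amino acids. Both work only as heterodimers with the heavy chain SLC3A2 (4F2hc, CD98). SLC1A5 (ASCT2) exchanges glutamine for other neutral amino acids, and SLC7A1 (CAT1) imports arginine and lysine.

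The ATF4 element was looked for in the promoter sequences, since all 6 genes are counted as ATF4 targets. Promoter windows of RefSeq (GRCh38.p14) ran from 250 bases before to 50 bases after an annotated start, and 5 of the 6 genes had at least 1 window. SLC7A11 had none, so its promoter was not searched. The core TGATGNAA was searched on both strands, and 1270 of all 35116 windows, or 3.62%, held it. It was found in 1 of 3 windows of SLC3A2, in 1 of 3 windows of SLC1A5 and in the only window of SLC7A1. In the lines below, capitals mark the core, and bases are given 5′ to 3′ along the gene's strand.
SLC3A2, chr11:62881725-62881748, plus strand: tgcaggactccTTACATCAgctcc
SLC1A5, chr19:46784893-46784922, minus strand: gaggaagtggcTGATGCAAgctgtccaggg
SLC7A1, chr13:29595663-29595692, minus strand: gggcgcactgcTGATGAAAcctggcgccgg
In SLC3A2 the core lay on the opposite strand and began 38 bases after the start of that window's transcript, in SLC7A1 it began 8 bases after the start, and in SLC1A5 it began at position -97. The SLC1A5 and SLC3A2 starts concerned are each 1 of several annotated for the gene. No match was found in the window of SLC38A2 or of SLC7A5, which says only that these letters are not in those 300 bases. The element known for SLC38A2 lies in its first intron, outside the window. The SLC38A2 sequence upstream of the start is shown because that gene's RNA changed most, with the capitals marking TATAA, which began at position -28 and was present in 20.4% of all windows.
SLC38A2, chr12:46372774-46373023, minus strand: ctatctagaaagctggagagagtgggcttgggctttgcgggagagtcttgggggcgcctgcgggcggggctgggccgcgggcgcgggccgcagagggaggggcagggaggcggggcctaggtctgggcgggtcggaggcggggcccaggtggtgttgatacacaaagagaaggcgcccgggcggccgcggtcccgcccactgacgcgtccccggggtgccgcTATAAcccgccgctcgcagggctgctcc
The motif CCAAT, present in 34.6% of windows, occurred once in 1 window each of SLC3A2, SLC1A5 and SLC7A1. These matches are descriptions of sequence, and binding was not measured.

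Values are FPKM, the authors' fragment counts per length and per mapped fragments, so levels can be set side by side between genes. Fold changes are log2 differences of FPKM + 1, AZD0095 minus DMSO, from limma, with Benjamini-Hochberg adjusted p over all 6777 genes and a gene called at an adjusted p under 0.05. On this scale, changes of genes with low FPKM are understated. In RNA, 545 genes were called, and the count was 1112, 116 and 214 without AZD0095 replicates 1, 2 and 3. It was 280, 100 and 249 without DMSO replicates 1, 2 and 3. No gene was called in footprints or in translational efficiency. Footprint libraries were shallow: the whole-read steps in their FPKM gave 141122, 217366 and 501351 implied reads in AZD0095 libraries and 123859, 107087 and 192324 in DMSO libraries. Depth thus differed between treatments by a factor of 2.03 in the mean, and its part in the footprint results was not tested. How deeply the RNA libraries were sequenced is unknown. Both replicate 1 RNA libraries had higher values than the others on the second principal component (12.2 in AZD0095 and 3.18 in DMSO, against -7.90 to -0.0168 in the other 4). DMSO replicate 1 lay nearer to AZD0095 replicate 2 (-0.0168) than to AZD0095 replicate 1, so only the latter stood clearly apart. The genes listed by the authors include 5 of 5 mesenchymal markers of this line, led by VIM, and 0 of 2 hormone receptor genes (ESR1, PGR). None of 4 blood, 3 fibroblast and 3 endothelial markers was listed. Of 6 luminal markers 4 were listed, of which KRT19, a keratin, rose in RNA to 160 FPKM with AZD0095, against 129 FPKM with DMSO (log2 fold change 0.31, limma adjusted p = 0.0102), and its part in the transporter results was not tested. In bulk libraries, more RNA per cell and more cells that express a gene cannot be told apart.

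SLC38A2 RNA rose with AZD0095. It measured 212, 205 and 199 FPKM in the 3 AZD0095 libraries, against 124, 113 and 107 FPKM in the 3 DMSO libraries. Every AZD0095 library lay above every DMSO library, and the gap between the groups was wider than the range within either. The means were 206 ± 6.70 FPKM with AZD0095 and 115 ± 8.64 FPKM with DMSO (SD, n = 3 each), a 1.79-fold difference. On the log2 scale the change was 0.84 (SE 0.06, 95% interval 0.70 to 0.98, limma adjusted p = 0.000282), the 19th highest of the 6777 genes. The gene, ENSG00000134294, lies at chr12:46358188-46372773 (GRCh38). Its rank by RNA level was 335 with AZD0095 and 680 with DMSO, counted from the most abundant of the listed genes.

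SLC7A11 RNA, the light chain of the cystine importer, rose by a smaller step. It measured 11.5, 12.5 and 11.9 FPKM in AZD0095 libraries, against 8.69, 8.75 and 10.0 FPKM in DMSO libraries. The groups did not overlap, with AZD0095 replicate 1 the lowest of its group and DMSO replicate 3 the highest of its own. The means were 11.9 ± 0.497 FPKM with AZD0095 and 9.15 ± 0.746 FPKM with DMSO (SD, n = 3 each). The log2 fold change was 0.35, or 1.28-fold on the scale of FPKM + 1 (SE 0.08, 95% interval 0.16 to 0.54, limma adjusted p = 0.0407). The call was lost in 5 of the 6 fits that leave out 1 library, with log2 fold changes of 0.32 to 0.41. The limma adjusted p was 0.025, 0.156 and 0.115 without AZD0095 replicates 1, 2 and 3, and 0.118, 0.167 and 0.0528 without DMSO replicates 1, 2 and 3. It was 0.0557 after quantile normalization. The gene, ENSG00000151012, lies at chr4:138164097-138242349 (GRCh38).

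**Figure D1:**
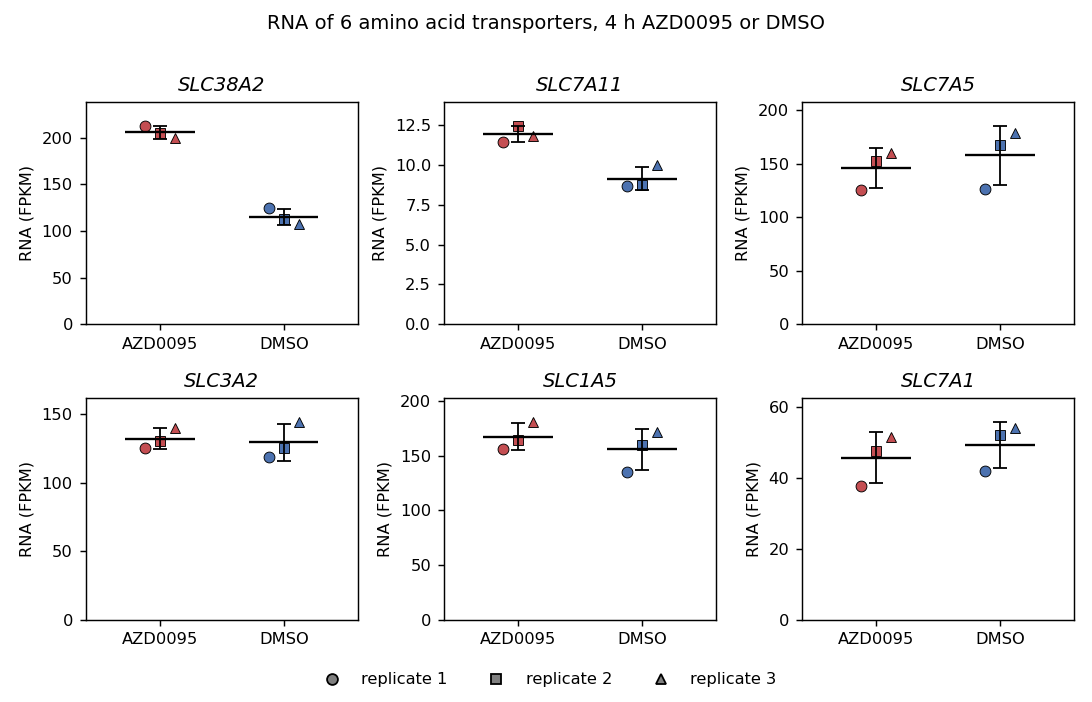
RNA of the 6 transporters in FPKM, with AZD0095 (red) left of DMSO (blue). Points are libraries with a marker shape per replicate number, the long bar is the mean and the error bar 1 SD (n = 3 each). Groups are apart for SLC38A2 (199 to 212 with AZD0095, 107 to 124 with DMSO) and SLC7A11, and overlap for the other 4.

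SLC3A2, the heavy chain that SLC7A11 and SLC7A5 share, showed no change past the test in RNA. Its level was 125, 131 and 140.0 FPKM in AZD0095 libraries and 119, 125 and 144 FPKM in DMSO libraries. The AZD0095 range lay inside the DMSO range, with means of 132 ± 7.40 FPKM with AZD0095 and 129 ± 13.4 FPKM with DMSO (SD, n = 3 each). The log2 difference was 0.03 (SE 0.08, limma adjusted p = 0.841), with a 95% interval of -0.15 to 0.21. That interval does not reach the change of SLC38A2. ENSG00000168003, this gene, spans chr11:62856109-62888860 (GRCh38).

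SLC7A5, the leucine importer, also did not pass the test in RNA. AZD0095 libraries held 125, 153 and 160.2 FPKM, and DMSO libraries held 127, 168 and 179 FPKM. Replicate 1 was the lowest library of both treatments, and the groups overlapped. Mean RNA was 146 ± 18.4 FPKM with AZD0095 and 158 ± 27.6 FPKM with DMSO (SD, n = 3 each), with a log2 difference of -0.10 (SE 0.14, 95% interval -0.42 to 0.21, limma adjusted p = 0.687). In replicates 2 and 3 alone, chosen after seeing the data, the log2 difference was -0.15 (limma adjusted p = 0.0646). Leaving out 1 library gave -0.26 to 0.001 (limma adjusted p 0.222 to 0.997). The gene is ENSG00000103257 at chr16:87830023-87869507 (GRCh38).

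SLC1A5, the glutamine exchanger, measured 157, 165 and 181 FPKM in AZD0095 libraries and 135, 160.3 and 172 FPKM in DMSO libraries. The groups overlapped, and replicate 1 was again the lowest of each. The means of 168 ± 12.6 FPKM with AZD0095 and 156 ± 18.7 FPKM with DMSO (SD, n = 3 each) gave a log2 difference of 0.11 (SE 0.09, 95% interval -0.10 to 0.32, limma adjusted p = 0.527). Its identifier is ENSG00000105281 and its position chr19:46774883-46788594 (GRCh38).

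SLC7A1, the importer of arginine and lysine, measured 37.6, 47.5 and 51.6 FPKM in AZD0095 libraries and 41.8, 51.9 and 54.0 FPKM in DMSO libraries. Here too replicate 1 was lowest in both groups, which overlapped. Mean levels were 45.6 ± 7.19 FPKM with AZD0095 and 49.3 ± 6.53 FPKM with DMSO (SD, n = 3 each), with a log2 difference of -0.11 (SE 0.13, 95% interval -0.41 to 0.19, limma adjusted p = 0.647). The gene is ENSG00000139514 at chr13:29509414-29595688 (GRCh38).

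In RNA, then, 2 of the 6 transporters were called higher and 0 lower, where 8.04% of all genes tested were called, 5.03% higher and 3.01% lower. The median log2 fold change over the 6 was 0.07, against 0.01 over all genes, and 4 of the 6 values were above 0. SLC38A2 and SLC7A11 were also the 2 with an unadjusted p under 0.05 (24.2% of all genes) and the 2 whose groups did not overlap (29.2% of all genes). Restricting the fit to replicates 2 and 3, chosen after seeing the data, gave 0.87 for SLC38A2 (limma adjusted p = 1.29e-07) and 0.35 for SLC7A11 (limma adjusted p = 0.0187), with no other of the 6 called.

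Footprints of SLC38A2 were higher in each AZD0095 library than in any DMSO library. They measured 256, 252 and 309 FPKM with AZD0095, against 194, 148 and 132 FPKM with DMSO. The means were 272 ± 31.8 FPKM with AZD0095 and 158 ± 32.3 FPKM with DMSO (SD, n = 3 each). The log2 difference of 0.79 (SE 0.28, 95% interval 0.18 to 1.41) had an unadjusted limma p of 0.0159 and did not pass the correction over all genes (adjusted p = 0.626). SLC38A2 was the only member of the 6 with an unadjusted p under 0.05 in footprints or with groups apart, which held for 7.82% and 13.0% of all genes; 0.0% were called. Behind these values stood 36.1 to 155 implied reads per kilobase with AZD0095 and 15.8 to 25.5 with DMSO.

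SLC7A11 footprints measured 59.6, 57.9 and 50.7 FPKM in AZD0095 libraries and 101, 24.3 and 43.5 FPKM in DMSO libraries. The DMSO libraries lay on both sides of the narrow AZD0095 range. DMSO replicate 2 held 2.61 implied reads per kilobase, the thinnest value of the 6 genes, and DMSO replicate 1, the highest library, held 12.5. The log2 difference was 0.23 (SE 0.54, 95% interval -0.93 to 1.39, limma adjusted p = 0.945). It was 0.76 without DMSO replicate 1 and -0.24 without DMSO replicate 2.

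SLC3A2 had the highest mean footprint level per length of the 6 in both treatments, though not in every library, with 263, 475 and 304 FPKM in AZD0095 libraries and 374, 387 and 372 FPKM in DMSO libraries. The DMSO values were tight and sat inside the wide AZD0095 range. The log2 difference was -0.17 (SE 0.27, 95% interval -0.75 to 0.41, limma adjusted p = 0.917). SLC7A5 footprints measured 86.7, 155 and 171 FPKM with AZD0095 and 198, 225 and 140 FPKM with DMSO. AZD0095 replicate 1 was lowest and DMSO replicate 2 highest, and the groups overlapped (log2 difference -0.47, SE 0.35, 95% interval -1.24 to 0.30, limma adjusted p = 0.789).

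SLC1A5 footprints measured 235, 309.8 and 386 FPKM with AZD0095 and 384, 194 and 226 FPKM with DMSO, so that both treatments reached nearly the same highest value. The log2 difference was 0.25 (SE 0.32, 95% interval -0.44 to 0.93, limma adjusted p = 0.892). SLC7A1 footprints measured 56.2, 81.5 and 110.2 FPKM with AZD0095 and 107, 82.7 and 81.3 FPKM with DMSO. The DMSO libraries lay within the AZD0095 range (log2 difference -0.17, SE 0.39, 95% interval -1.02 to 0.69, limma adjusted p = 0.946). Over the 6 genes the median log2 footprint difference was 0.03, against 0.04 over all genes.

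**Figure D2:**
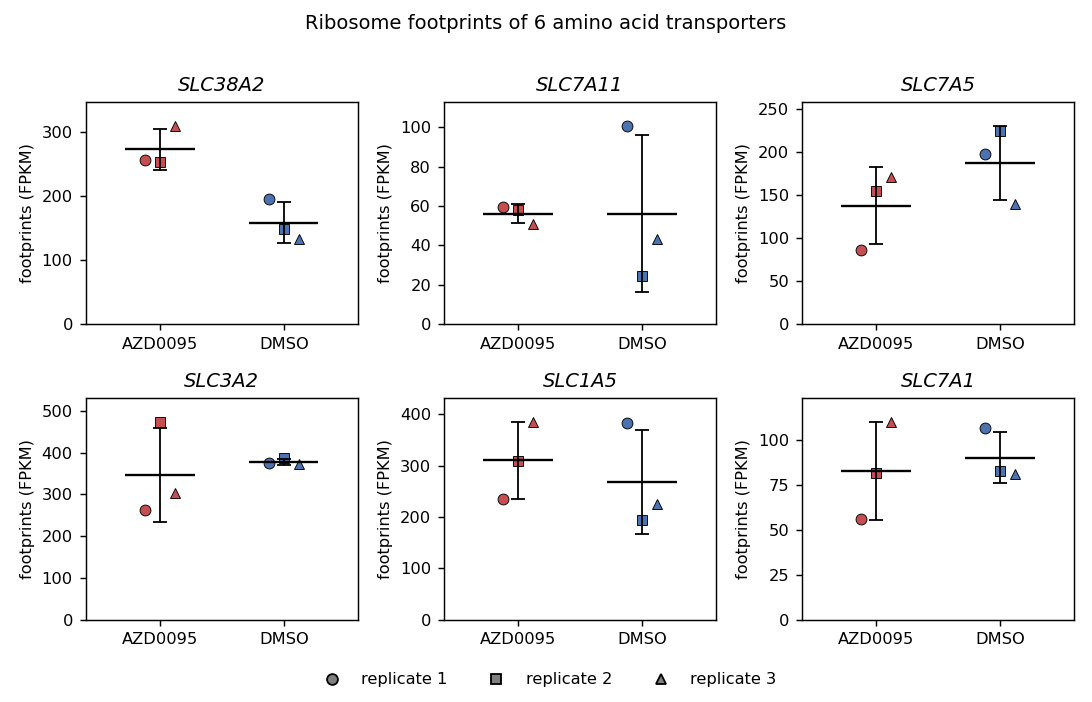
Ribosome footprints of the 6 transporters in FPKM, with AZD0095 (red) left of DMSO (blue). Points are libraries, the long bar is the mean and the error bar 1 SD (n = 3 each). SLC38A2 is the one gene whose groups do not overlap (252 to 309 with AZD0095, 132 to 194 with DMSO).

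Translational efficiency, the footprint change beyond the RNA change, was tested over the 12 libraries by a term for assay by treatment. No transporter passed, nor did any gene (0.0% called, 8.53% with an unadjusted p under 0.05). For SLC38A2 the log2 change in efficiency was -0.05 (SE 0.23, 95% interval -0.54 to 0.44, limma adjusted p = 0.964). SLC7A5 had the lowest value, -0.37 (95% interval -1.16 to 0.42), and SLC1A5 the highest, 0.14 (95% interval -0.59 to 0.87). SLC7A11 had -0.12 with the widest interval, -1.35 to 1.11. SLC3A2 had -0.20 (95% interval -0.77 to 0.37) and SLC7A1 -0.05 (95% interval -0.82 to 0.72), and the limma adjusted p-values of these 5 genes were 0.816 to 0.980. Intervals this wide show neither a change nor its absence.

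**Figure D3:**
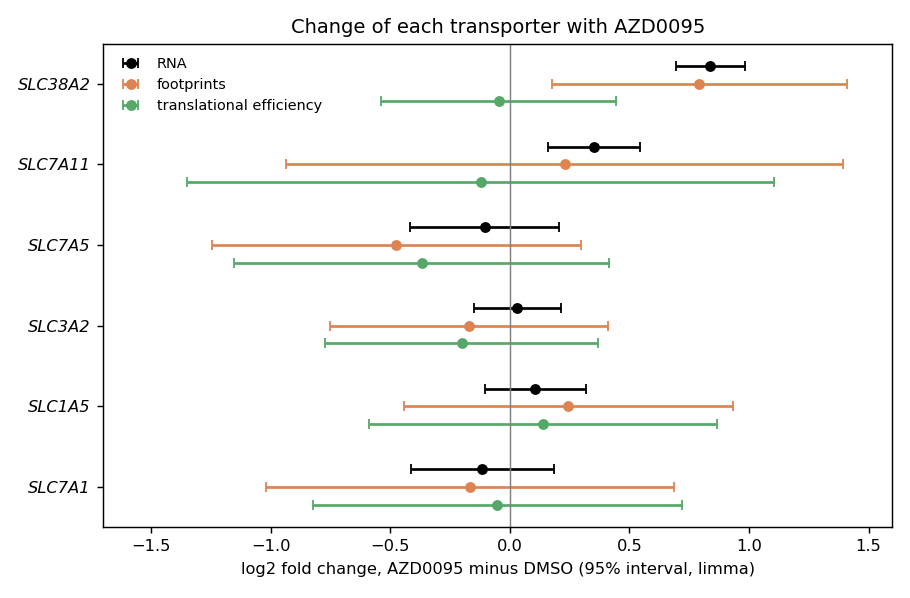
Log2 fold change (AZD0095 minus DMSO) of each transporter in RNA (black), footprints (orange) and translational efficiency (green), with 95% limma intervals. RNA intervals are narrow and lie above 0 for SLC38A2 (0.84) and SLC7A11 (0.35); the footprint interval lies above 0 for SLC38A2 alone.

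SLC7A11 and SLC7A5 share the heavy chain SLC3A2, so their ratios within a library were compared, together with the ratio of the glutamine carriers SLC38A2 and SLC1A5. There were 4 ratios in 2 assays, 8 comparisons in all, each by a two-sided exact permutation test whose smallest possible p is 0.1, so none could pass 0.05. The RNA ratio of SLC7A11 to SLC3A2 was 0.0915, 0.0954 and 0.0847 with AZD0095, against 0.0731, 0.0701 and 0.0693 with DMSO. These groups did not overlap (log2 difference 0.35, exact permutation p = 0.1, adjusted over the comparisons 0.2). The RNA ratio of SLC7A11 to SLC7A5 averaged 0.0824 ± 0.00882 with AZD0095 and 0.0588 ± 0.00863 with DMSO (SD, n = 3 each, exact permutation p = 0.1), also without overlap. SLC7A5 to SLC3A2 averaged 1.10 ± 0.0914 with AZD0095 and 1.22 ± 0.141 with DMSO and overlapped (SD, n = 3 each, exact permutation p = 0.4).

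The RNA ratio of SLC38A2 to SLC1A5 was 1.36, 1.24 and 1.10 in AZD0095 libraries, against 0.915, 0.703 and 0.622 in DMSO libraries. SLC38A2 RNA thus exceeded SLC1A5 RNA per length in each AZD0095 library and was below it in each DMSO library. Its log2 difference was 0.74 (exact permutation p = 0.1). In footprints the same ratio was 1.09, 0.814 and 0.800 with AZD0095, against 0.506, 0.762 and 0.586 with DMSO, without overlap (log2 difference 0.55, exact permutation p = 0.1, adjusted 0.2). The other footprint ratios overlapped between treatments, with exact permutation p-values of 0.3 to 0.6.

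By RNA per length with AZD0095, SLC38A2 stood first, with no library overlapping SLC1A5, which came next. SLC1A5, SLC7A5 and SLC3A2 followed with overlapping libraries, then SLC7A1 and, lowest, SLC7A11, both apart from their neighbours. With DMSO, SLC7A5, SLC1A5, SLC3A2 and SLC38A2 each overlapped the next in the order, and SLC7A1 and SLC7A11 again stood apart below them. In footprints the order with AZD0095 was SLC3A2, SLC1A5 and SLC38A2, each overlapping the next, and then, apart from these, SLC7A5, SLC7A1 and SLC7A11. In DMSO footprints SLC3A2, SLC1A5, SLC7A5 and SLC38A2 overlapped one after the other, and SLC7A1 and SLC7A11 came below and overlapped each other.

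SLC7A11 carried many footprints for its RNA. Its ratio of mean footprint to mean RNA FPKM was 4.70 with AZD0095 and 6.14 with DMSO, above 82.1% and 88.0% of all genes. Without footprint replicate 1 the DMSO ratio was 3.71, above 70.6% of genes. The median gene had a ratio of 2.45 with AZD0095 and 2.43 with DMSO. SLC7A5 stood at the other end, with 0.943 with AZD0095 and 1.19 with DMSO, above 8.91% and 17.9% of genes. SLC38A2 was also low, at 1.33 with AZD0095 and 1.38 with DMSO, and its ratio exceeded 19.2% and 23.2% of genes. SLC1A5 had 1.85 with AZD0095 and 1.72 with DMSO. SLC7A1 had 1.81 with AZD0095 and 1.83 with DMSO, and SLC3A2, at 2.63 with AZD0095 and 2.92 with DMSO, was near the median. These ratios are descriptions with no test, and their scale depends on how each assay was normalized.

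**Figure D4:**
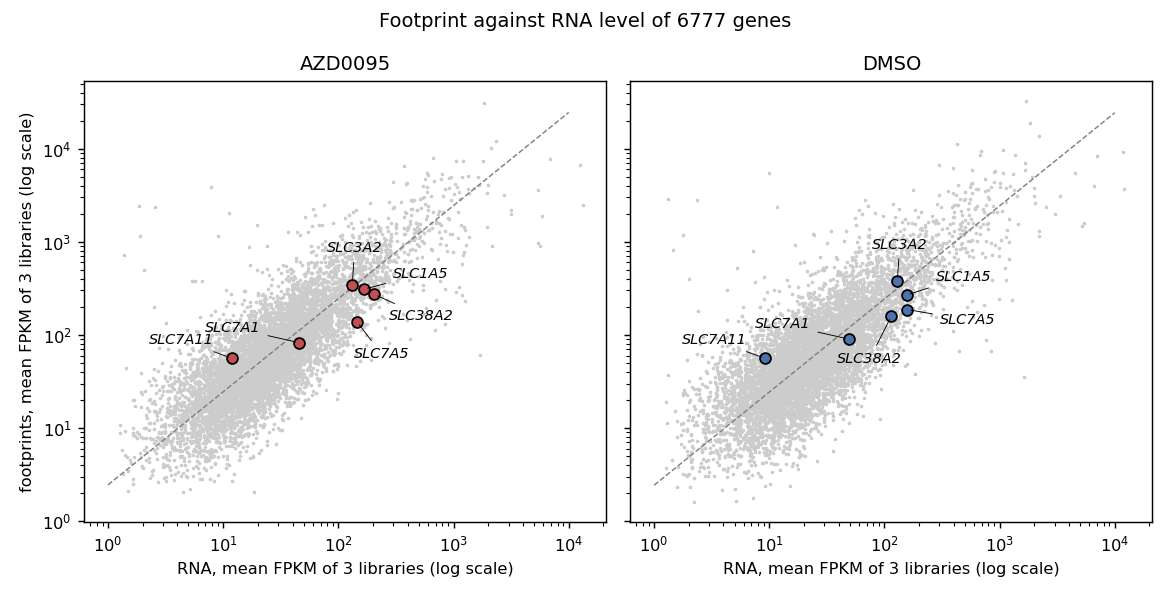
Mean footprint FPKM against mean RNA FPKM of all 6777 genes (grey, log axes) with AZD0095 (left) and DMSO (right). The 6 transporters are marked, and the dashed line is the median ratio of footprints to RNA (2.45 with AZD0095, 2.43 with DMSO). SLC7A11 lies above the line, SLC7A5 and SLC38A2 below it.

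The other amino acid transporters of the plasma membrane and lysosome were taken as a list of 36 genes, of which 11 were among the genes tested. In RNA 2 of these rose and 1 fell, where 5.03% of all genes were called higher and 3.01% lower, and the other 8 missed the threshold. The list's median log2 fold change was 0.11, against 0.01 over all genes. SLC1A4 (ASCT1), an exchanger of serine, alanine and other small neutral amino acids and the closest relative of SLC1A5 here, rose to 8.23, 8.93 and 9.77 FPKM with AZD0095, against 5.29, 6.54 and 6.54 FPKM with DMSO. Its log2 fold change was 0.49 (SE 0.10, limma adjusted p = 0.0286). SLC6A9 (GlyT1), a glycine importer, rose to 8.24, 10.7 and 10.9 FPKM with AZD0095, against 5.70, 6.99 and 7.34 FPKM with DMSO (log2 fold change 0.51, SE 0.13, limma adjusted p = 0.048). SLC7A6 (y+LAT2), a further light chain of SLC3A2 that exchanges arginine for glutamine, fell in RNA to 12.9, 15.5 and 15.4 FPKM with AZD0095, against 18.3, 20.1 and 19.7 FPKM with DMSO (log2 fold change -0.39, SE 0.09, limma adjusted p = 0.0358). The groups of these 3 genes did not overlap, which held for 29.2% of all genes. Those of SLC7A2, SLC38A1, SLC38A9 and SLC15A4, which were not called, did not overlap either. Each of the 3 kept its call without AZD0095 replicate 1 and lost it in all 5 other fits that leave out 1 library, with limma adjusted p up to 0.109 for SLC1A4, 0.176 for SLC6A9 and 0.152 for SLC7A6. SLC6A9 also lost its call after median centring (limma adjusted p = 0.0569) and after quantile normalization (limma adjusted p = 0.054).

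SLC38A9, the lysosomal arginine sensor of mTORC1, had a log2 difference of 0.38 in RNA (limma adjusted p = 0.0503). It passed after median centring (limma adjusted p = 0.0445), with replicate 1 as a batch (0.0087), in replicates 2 and 3 only (0.0446) and without AZD0095 replicate 1 (0.0499). SLC38A1 (SNAT1), the relative of SLC38A2 that also imports glutamine, had a log2 difference of 0.17 in RNA (limma adjusted p = 0.145), with 66.9, 62.7 and 62.6 FPKM in AZD0095 libraries and 54.4, 56.2 and 60.5 FPKM in DMSO libraries. With replicate 1 as a batch its limma adjusted p was 0.0451. The remaining 6, SLC7A2, SLC6A6, SLC36A4, SLC38A10, SLC15A4 and CTNS, had RNA log2 differences of -0.16 to 0.12. In footprints SLC1A4 and SLC7A6 alone among the 11 had an unadjusted limma p under 0.05, which held for 7.82% of all genes. SLC1A4 footprints were 29.4, 25.4 and 30.3 FPKM with AZD0095, against 4.96, 12.7 and 7.19 FPKM with DMSO (log2 difference 1.74, SE 0.56, limma adjusted p = 0.626). SLC7A6 footprints were 70.9, 23.8 and 71.5 FPKM with AZD0095, against 20.1, 29.6 and 3.30 FPKM with DMSO (log2 difference 1.85, SE 0.76, limma adjusted p = 0.631), so this gene's footprints and RNA had opposite signs. The SLC7A6 footprint groups overlapped. Those of SLC1A4 did not, and neither did those of SLC6A6, where 13.0% of all genes had footprint groups apart. Depth in DMSO libraries was thin, with 0.61 to 1.38 implied reads per kilobase for SLC1A4 and 0.63 to 3.17 for SLC7A6.

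**Figure D5:**
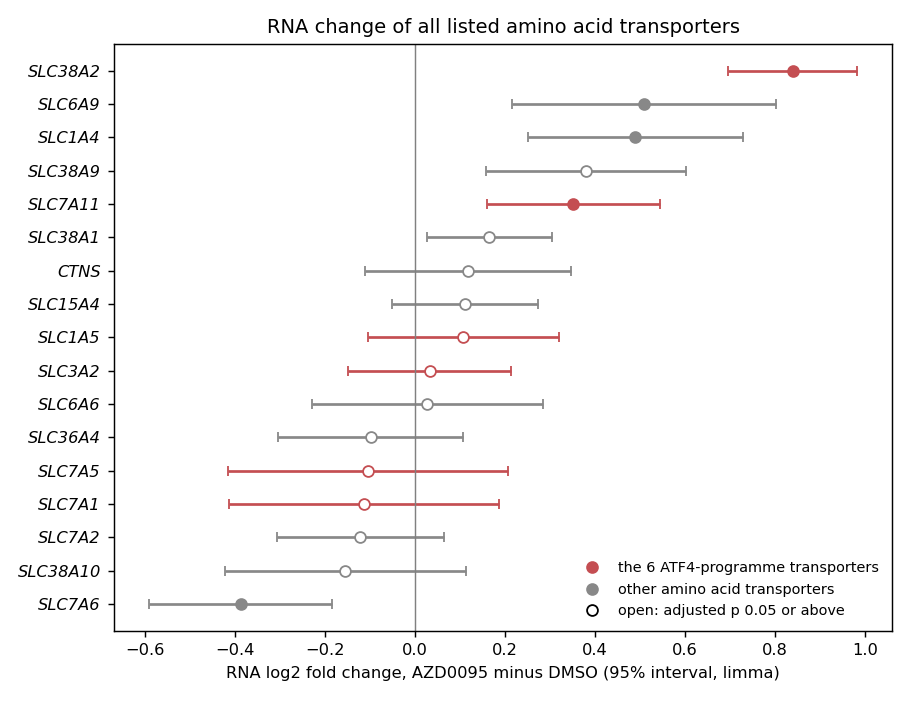
RNA log2 fold change (AZD0095 minus DMSO, 95% limma interval) of the 6 ATF4-programme transporters (red) and the 11 other tested amino acid transporters (grey). Filled points have an adjusted p under 0.05. SLC38A2 (0.84) lies farthest to the right, SLC6A9, SLC1A4 and SLC7A11 also lie above 0, and SLC7A6 (-0.39) lies below it.

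The rest of the ATF4 programme was taken as a list of 34 genes, of which 21 were among the genes tested. The list was chosen with earlier results of these data known, so its counts are not independent of them. In RNA 15 of these rose and 0 fell, where 5.03% of all genes were called higher and 3.01% lower. The other 6 missed the threshold, with RNA log2 differences of -0.12 (XPOT), 0.09 (ALDH18A1), 0.10 (PPP1R15A), 0.15 (SHMT2), 0.19 (CEBPG) and 0.32 (BCAT1). The median log2 fold change over the 21 was 0.37, against 0.01 over all genes. ATF4 itself rose to 256 ± 6.34 FPKM with AZD0095, against 199 ± 8.39 FPKM with DMSO (SD, n = 3 each, log2 fold change 0.36, limma adjusted p = 0.00632). DDIT4 (REDD1), an inhibitor of mTORC1, rose to 60.1 ± 2.36 FPKM with AZD0095, against 12.1 ± 1.86 FPKM with DMSO (SD, n = 3 each, log2 fold change 2.23, limma adjusted p = 6.02e-05). CTH, which makes cysteine from cystathionine, had a log2 fold change of 1.33 and TRIB3, a pseudokinase that binds ATF4, one of 1.31, both above the change of SLC38A2. VLDLR, a lipoprotein receptor, rose by 1.25 and CEBPB, a dimer partner of ATF4, by 0.89 on the log2 scale. GPT2, an alanine aminotransferase, rose by 0.86, VEGFA, an angiogenic growth factor, by 0.85, and GDF15, a secreted stress factor, by 0.66. The serine synthesis enzymes PSPH (0.78), PSAT1 (0.46) and PHGDH (0.37) rose, as did MTHFD2 (0.27), a mitochondrial folate enzyme, PYCR1 (0.33), which makes proline, and EIF4EBP1 (0.29), an inhibitor of cap-dependent translation. These 15 genes were those called higher in the same fit, so their range sets no lower bound for the programme. Over all 21 genes the RNA log2 differences ran from -0.12 (XPOT) to 2.23 (DDIT4). The RNA changes of all 6 transporters, SLC38A2 (0.84) and SLC7A11 (0.35) included, lay within that range. Calls of DDIT4, CTH, TRIB3, VLDLR, CEBPB, VEGFA, PSPH and ATF4 were kept in 6 of 6 fits that leave out 1 library, while those of the other 7 were lost in 1 to 5 of the 6. The count of 15 was thus 8 and 10 without AZD0095 replicates 2 and 3, and 9 without DMSO replicate 2. In footprints 0 of the 21 passed, where 0.0% of all genes were called. An unadjusted limma p under 0.05 was found for 4 of the 21 and for 7.82% of all genes. The median log2 footprint difference was 0.68, against 0.04 over all genes, and the part of unequal depth in it was not tested.

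Genes of the pathways that use the imported amino acids are set here against the 8.04% of all genes that were called in RNA. Of 11 tested genes of cysteine and glutathione metabolism, CTH rose and GCLM, the modifier subunit of the first enzyme of glutathione synthesis, fell in RNA to 16.6 ± 1.39 FPKM with AZD0095, against 23.1 ± 2.35 FPKM with DMSO (SD, n = 3 each, log2 fold change -0.45, limma adjusted p = 0.027). The other 9 did not pass. GCLM's call was kept without AZD0095 replicate 1 and lost in the other 5 such fits, with limma adjusted p up to 0.111. Of 11 tested genes of glutamine and glutamate metabolism, GPT2, PSAT1 and GOT1, an aspartate aminotransferase, rose (GOT1 log2 fold change 0.37, limma adjusted p = 0.0293), 0 fell and 8 did not pass. GOT1 lost its call in 4 of the 6 fits that leave out 1 library, and the list's count was 0 without AZD0095 replicate 2 and 1 without DMSO replicate 2. Of 10 tested genes of arginine and polyamine metabolism, SAT1, which acetylates polyamines for export, rose (log2 fold change 0.27, limma adjusted p = 0.0405), and 9 did not pass. The median RNA log2 fold changes of the 3 lists were 0.02, 0.04 and 0.08, in that order.

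Of the 18 tested genes that sense amino acids for mTORC1 and GCN2, MLST8, a subunit of mTORC1 and mTORC2, fell in RNA (log2 fold change -0.29, limma adjusted p = 0.0405), and 17 did not pass. The 9 tested mitochondrial amino acid carriers held 0 calls in RNA by limma (8.04% over all genes), with 3 at an unadjusted p under 0.05 (24.2% over all genes). The calls of SAT1 and of MLST8 were kept without AZD0095 replicate 1 and lost in the 5 other fits that leave out 1 library, with limma adjusted p up to 0.148 and 0.17. SAT1 was also lost after quantile normalization (limma adjusted p = 0.0545), and MLST8 after median centring and after quantile normalization (limma adjusted p = 0.0604 and 0.0616).

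Of 9 tested partners and regulators of the transporters, KEAP1 fell and 8 did not pass, where 8.04% of all genes were called in RNA. KEAP1 marks the transcription factor NRF2 for degradation, and NRF2 is known to raise SLC7A11 and GCLM. Here SLC7A11 RNA rose (log2 fold change 0.35) and GCLM RNA fell (log2 fold change -0.45). NRF2 protein was not measured, and its part in these changes was not tested. KEAP1 RNA was 32.6 ± 1.08 FPKM with AZD0095 and 50.2 ± 1.03 FPKM with DMSO (SD, n = 3 each, log2 fold change -0.61, SE 0.06, limma adjusted p = 0.000871). It kept its call in 16 of 16 alternatives. NFE2L2, which encodes NRF2, had a log2 difference of -0.08 in RNA (limma adjusted p = 0.818), and BACH1, a repressor at NRF2 sites, one of 0.38 (limma adjusted p = 0.118). MYC, a known activator of SLC1A5 and SLC7A5, measured 103 ± 2.11 FPKM with AZD0095 and 101 ± 3.40 FPKM with DMSO (SD, n = 3 each, log2 difference 0.03, limma adjusted p = 0.731).

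For each transporter, the 3 genes with the highest Pearson r of log2 RNA levels over the 6 RNA libraries were listed as a description. The libraries share treatment and replicate, so such r values are high for many genes. SLC38A2 was most like MYH10 (r = 0.998), ERRFI1 (r = 0.997) and ETV5 (r = 0.995), all called higher in RNA, with log2 fold changes of 0.29, 1.13 and 0.81. SLC7A11 was most like DEF6 (r = 0.999), ODF2 (r = 0.997) and KPNA6 (r = 0.995), of which DEF6 was called higher (log2 fold change 0.37, limma adjusted p = 0.0432). SLC7A5 was most like RAPGEF1 and SREBF1 (r = 0.997 each) and NGFR (r = 0.990). SLC3A2 was nearest to SND1 (r = 0.995), DHRSX and P3H1 (r = 0.991 each), and SLC7A1 to ICMT (r = 0.996), PODXL (r = 0.991) and POFUT1 (r = 0.990). SLC1A5 was nearest to LGALS3BP (r = 0.994), SLC16A3 and NUCB1 (r = 0.991 each). SLC16A3, the gene of the inhibited transporter, measured 104 ± 5.85 FPKM with AZD0095 and 98.4 ± 9.92 FPKM with DMSO (SD, n = 3 each, log2 difference 0.09, limma adjusted p = 0.563). None of the 12 genes listed for SLC7A5, SLC3A2, SLC1A5 and SLC7A1 was called.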

How the data were processed

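RNA-seq and ribosome profiling libraries were grouped by their labels into AZD0095 and DMSO, with 3 libraries of each per assay. The authors deposited FPKM values, 1 table per library; fastp, Bowtie2, STAR and hg38 are named in the submitters' processing notes, with no role or version; counter and annotation: not given in the sources used here. Every deposited table held 6785 genes and no value under 1.002 FPKM, so genes that fell under about 1 FPKM anywhere were not analysed here. The 8 repeated entries were dropped, leaving 6777 genes, and a filter at a mean of 1 FPKM removed none. Per the labels' protocols, footprints came from cycloheximide-treated lysate freed of nuclei and mitochondria, digested with RNase I and depleted of rRNA. RNA libraries are called total RNA in their titles and polyadenylated in another field, which was not settled.

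From the deposited FPKM, log2(FPKM + 1) was fitted with limma 3.58.1 in R 4.3.3 (trended variances, two-sided, Benjamini-Hochberg over all genes), separately for RNA and footprints and with an assay by treatment interaction for translational efficiency. Fits were tested on simulated data with independent noise per library, which held no batch, pairing or depth difference, so these were not checked. Footprint depth came from whole-read steps in the FPKM values; 1 read in 1 kilobase was worth 1.995 to 9.338 FPKM. RNA depth could not be recovered: a common ratio joined at most 5 genes for RNA library pairs and up to 77 for footprint pairs. Nothing in the labels ties replicates to separate cultures, so the p-values reflect spread among these libraries that could be technical. Named genes were all 6 transporters, every called member of the gene lists, every listed other amino acid transporter, and the 3 genes most like each transporter. NFE2L2, BACH1, MYC, KRT19, SLC16A3 and the uncalled genes of the ATF4 programme list were added after their values were seen. The transporters and gene lists were chosen with earlier results of these data known. Promoter sequences and gene positions came from RefSeq (GRCh38.p14), matched by symbol. How reads of paralogs were assigned is not known. Alternatives covered scaling, pseudocount, filter, variance model, replicate terms and leaving out each library.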

Additional observations from a re-analysis of the deposited data

How the results depend on the processing

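SLC38A2 stayed called in RNA in 16 of 16 alternatives (log2 0.79 to 0.90). SLC7A11 was lost after quantile normalization (0.345, limma adjusted p = 0.0557) and in 5 of the 6 fits that leave out 1 library. Those 6 fits gave log2 fold changes of 0.32 to 0.41 (limma adjusted p 0.025 to 0.167). Whether replicate numbers pair the samples was not settled, and the main fits held no replicate term. Deviations of same-numbered RNA libraries correlated at 0.622, 0.0857 and 0.489, and those of different numbers at -0.57 to 0.303. Not every library correlated best with its own number. With the numbers as a replicate block, 1622 genes were called in RNA, SLC7A11 had a limma adjusted p of 0.0122, and no call of the 6 transporters changed. In that fit the limma adjusted p was 0.0905 for SLC7A5, 0.0936 for SLC1A5, 0.0977 for SLC7A1 and 0.586 for SLC3A2. Replicate 1 as a batch gave 1660 called genes and replicates 2 and 3 only, chosen after seeing the data, 1395; leaving out 1 library gave 100 to 1112. Footprint calls stayed at 0 in all 16 alternatives, and translational efficiency gave 0 to 4 leaving out 1 library.

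Uncalled values that changed sign leaving out 1 library ranged, in RNA, from -0.26 to 0.001 (SLC7A5), -0.026 to 0.113 (SLC3A2), -0.225 to 0.016 (SLC7A1) and -0.089 to 0.112 (SLC6A6, -0.024 with replicates 2 and 3 only). In footprints they ranged from -0.24 to 0.76 (SLC7A11), -0.42 to 0.007 (SLC3A2) and -0.397 to 0.082 (SLC7A1), and for the footprint ratio of SLC7A11 to SLC3A2 from -0.09 to 0.96. In translational efficiency they ranged from -0.17 to 0.11 (SLC38A2), -0.59 to 0.41 (SLC7A11), -0.062 to 0.428 (SLC1A5) and -0.28 to 0.20 (SLC7A1). With replicates 2 and 3 only, the signs also turned for footprints of SLC3A2 (0.001) and SLC7A1 (0.21) and for efficiency of SLC38A2 (0.12), SLC7A11 (0.37), SLC7A5 (0.028) and SLC7A1 (0.30). The cause was not tested.

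Counts called in RNA follow for the block, the batch and replicates 2 and 3 only. These settings called 1622, 1660 and 1395 of all 6777 genes. The 9 mitochondrial carriers held 3, 3 and 1 (1 with a pseudocount of 5). The 18 genes of amino acid sensing held 3, 3 and 3 (0 after median centring and after quantile normalization). The 11 genes of glutamine held 6, 6 and 5, and the 10 of arginine held 3, 3 and 3 (2 after median centring). The block and the batch gave 2 for partners and regulators, and the batch gave 5 for other transporters. Fits that leave out 1 library called 100 to 1112 of all genes. They gave 8 to 15 (ATF4 programme), 0 to 4 (other transporters), 0 to 1 (mitochondrial), 0 to 3 (sensing), 1 to 2 (cysteine), 0 to 4 (glutamine) and 0 to 2 (arginine). The block also called SLC38A9 (limma adjusted p = 0.0182). No depth-matched footprint fit was run.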
